A study of Mus musculus with 4 samples.

Results

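Hearts lacking both miR-1 genes were described across birth by comparing the postnatal day 2.5 (P2.5) library with the embryonic day 15.5 (E15.5) library of that genotype. These are 2 of the 4 whole-heart libraries of the series, all poly-A selected RNA from mice of the strain labelled Sv129. Both carry the genotype labelled dKO, the deletion of miR-1-1 and of its paralog miR-1-2. The other 2 libraries, labelled dHET, are littermate controls of the same stages and are set beside them. The label dHET is read here as heterozygous for both deletions, so by label these controls are not wild type. Of 22319 gene rows usable in both tables, 8121 had a mean of at least 5 FPKM (fragments scaled to transcript length and to the library total) over both dKO libraries, and these were counted. The question asked of them is which changes of heart maturation are present without miR-1.

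In the fetus the heart works at low oxygen, burns mainly glucose and lactate, and grows by division of its muscle cells. Around birth the muscle cells leave the cell cycle, exchange fetal for adult sarcomere proteins, build calcium stores and mitochondria, and turn to fatty acids as fuel. Heart muscle holds much miR-1, a microRNA whose level rises as the heart matures and which lowers messenger RNAs pairing with its seed.

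With 1 library for each stage and genotype, there is no replicate error on any value and no test between stages was possible. Every difference is a difference between single libraries, and the number of hearts in each library is not given in the sources used here. Sequencing used single-end reads at P2.5 and paired-end reads at E15.5, of 100 bases each, so stage and read type cannot be told apart. The scaling totals recovered from low FPKM values were about 49900000 fragments for P2.5 dKO and 104000000 for E15.5 dKO. At 5 FPKM a transcript of 1000 bases then rests on 249.6 and 519.7 fragments. The deleted genes gave no check of the labels, because Mir1a-1 (chr2:180123753-180123829, build mm9) and Mir1a-2 were listed at 0 in all 4 libraries. In the dKO pair, Xist, the RNA of the inactive X chromosome, had 50.7 FPKM in the P2.5 library and 0.113 in the E15.5 library. The Y-linked Eif2s3y had 0.0113 and 25.1 FPKM, so the sex pattern differed between these 2 libraries and stage and sex cannot be told apart. Both dHET libraries had the Y pattern, with Eif2s3y at 36.1 and 28.6 FPKM. Counted genes of the X chromosome had a median change of -0.18 in dKO and -0.12 in dHET.

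Stage changes are given as log2((P2.5 FPKM + 1)/(E15.5 FPKM + 1)), centred on the median over genes of at least 5 FPKM in both libraries, a scale that understates changes of low genes. In dKO hearts 443 genes (5.45% of 8121) were at least 2-fold higher at P2.5 and 191 genes (2.35%) at least 2-fold lower. On the autosomes alone 436 were higher and 175 lower. At least 4-fold, 68 genes were higher and 21 lower, while 92.2% of all counted genes lay within 2-fold and 75.9% within 1.5-fold. When each library was instead rescaled to the same sum of FPKM, the median of all counted genes moved to -0.31, and 273 genes were higher and 665 lower. On that scale the dKO medians of cardiac transcription factors, matrix genes, chaperones, mitochondrial regulators, glycolysis, T-tubule genes and endothelial, fibroblast and erythroid markers were below 0. Genes named below that then lay within 2-fold included Idh3b, Ogdh, Mfn2, Ryr2, Cox6a1, Btg2 and Hspe1. Among groups of 8 or more counted genes, the highest dKO medians were those of fatty acid use (1.5), the respiratory chain (1.3), cardiomyocyte markers (1.07) and immediate early genes (1.04). The lowest were those of imprinted and fetal growth genes (-1.11) and of cell cycle genes (-0.60), against a median of -0.01 over all counted genes.

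**Figure D1:**
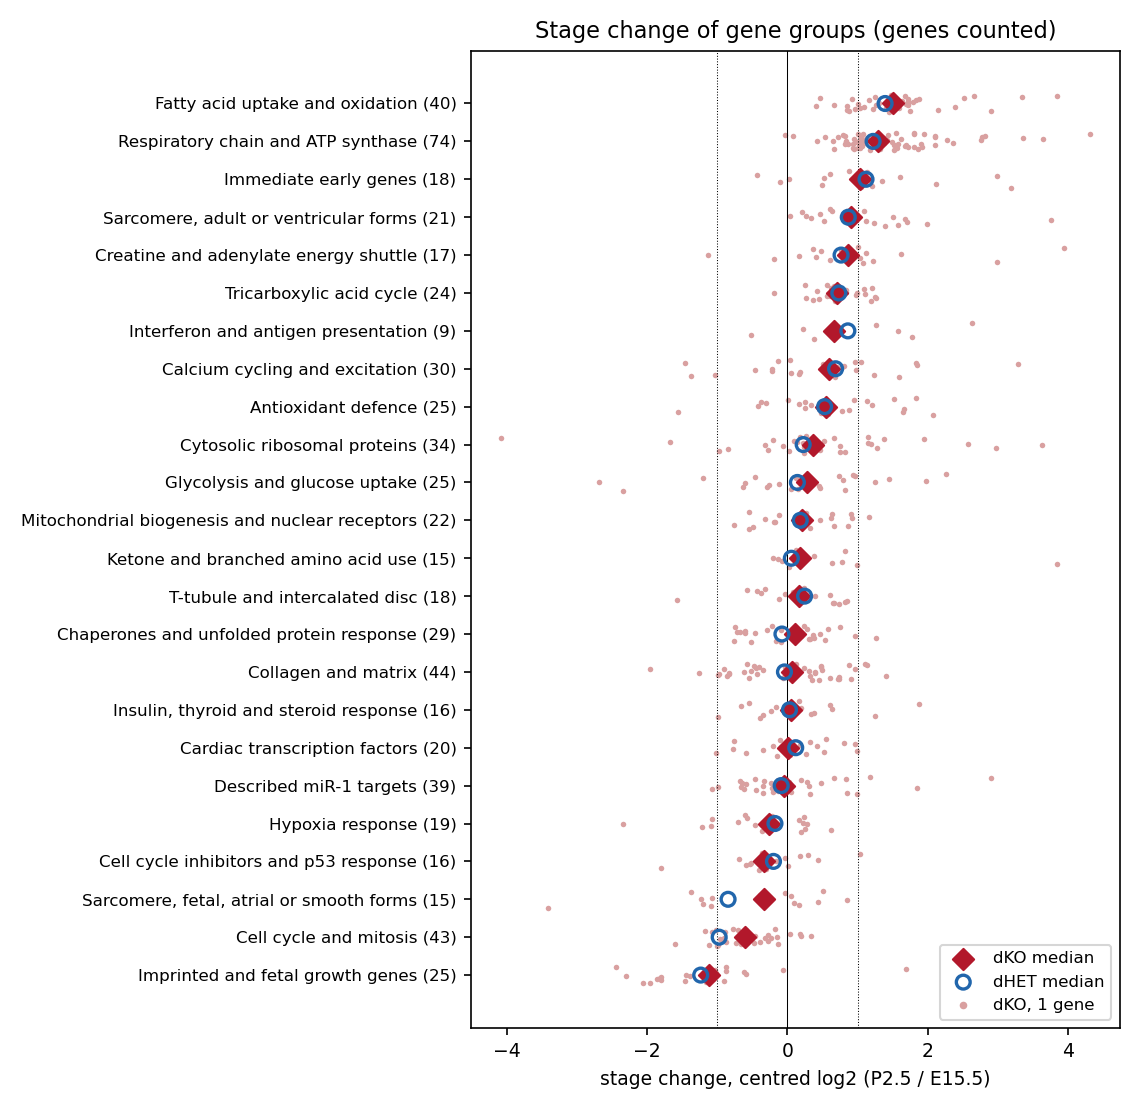
Stage change of gene groups in dKO hearts. The x axis gives the centred log2 change from E15.5 to P2.5; small points are counted genes in dKO, diamonds the dKO medians and open circles the dHET medians, with the number of counted genes in brackets. Fatty acid and respiratory chain genes sit to the right of 1 in the median, imprinted and fetal growth genes to the left of -1.

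Fatty acid uptake and oxidation had the highest median in hearts without miR-1 among groups of 8 or more counted genes. All 40 counted members had a dKO change above 0, 31 of them were at least 2-fold higher at P2.5 and none was lower by that much. In dHET hearts 32 were higher, with a median of 1.39 beside 1.5 in dKO. Plin5 (chr17:56251024-56256971), which coats lipid droplets beside mitochondria, had 13.2 FPKM at P2.5 dKO and 0.356 at E15.5 dKO. Both P2.5 libraries lay far above both E15.5 libraries for this gene, with changes of 3.34 in dKO and 3.54 in dHET.

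The steps of fatty acid use differed in size. Of the proteins that bring fatty acids into the cell, Cd36 went from 56.1 to 159 FPKM in dKO (change 1.44) and the carrier Fabp3 from 33.0 to 261 (2.90). The transcript of Fabp3 has near-identical copies elsewhere in the genome over most of its length, so its reads may be split. Acsl1, which activates fatty acids with coenzyme A, had a change of 2.15. Entry into the mitochondrion differed less. The muscle carnitine transferase Cpt1b had 154 FPKM in P2.5 dKO and 76.0 in E15.5 dKO (change 0.96), and 166 and 87.6 in dHET (0.96). Its liver form Cpt1a had a dKO change of 0.85, and the ratio of Cpt1b to Cpt1a was 3.44 in E15.5 dKO and 3.65 in P2.5 dKO. Inside the mitochondrion the first dehydrogenase for very long chains, Acadvl, went from 58.5 to 320.0 FPKM (2.39), whereas the medium-chain enzyme Acadm had a change of 1.41 and the short-chain enzyme Acads 1.09. Angptl4 and Pdk4, which restrain lipoprotein lipase and pyruvate dehydrogenase, were also higher, with changes of 2.66 and 1.88.

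The respiratory chain, which turns the electrons of fuel into ATP, followed closely. In dKO hearts 54 of 74 counted subunit genes were at least 2-fold higher at P2.5 and none was lower by that much, and in dHET hearts 51 were higher. Of complex I, 27 of 35 genes were higher in dKO with a median of 1.31. Complex III had 7 of 9 (median 1.29), cytochrome oxidase 10 of 13 (1.36) and ATP synthase 10 of 13 (1.3). None of the 4 counted complex II genes passed 2-fold, with a median of 0.83. Many of these transcripts are short or have copies in the genome, and 42 of the 74 were under 1000 bases or had such copies. Among the other 32, the dKO median was 1.04 and 20 were higher. Of the 13 cytochrome oxidase genes only 1 was among these 32, and it lay within 2-fold (0.71). Atp5h (4.31) and Uqcr11 (3.64), among the largest single values, are short transcripts with copies.

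Cytochrome oxidase has muscle and general forms of 3 of its subunits, and their ratio within a library does not depend on the centring. Cox8b, the muscle form, was at 0.105 times Cox8a in E15.5 dKO and at 0.71 times in P2.5 dKO, beside 0.0875 and 1.00 in dHET. For Cox7a1 over Cox7a2 the ratio went from 0.285 to 0.868 in dKO and from 0.293 to 0.985 in dHET. Both pairs shifted toward the muscle form in each genotype. For the third pair, Cox6a2 over Cox6a1 was 0.353 in E15.5 dKO and 0.417 in P2.5 dKO, against 0.454 and 1.43 in dHET. In dKO the changes were 1.36 for Cox6a2 and 1.13 for Cox6a1, which became 0.84 and 0.42, both within 2-fold, after adjustment for GC content and length. In dHET the changes were 2.14 and 0.50. All these transcripts are under 1000 bases.

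Of the tricarboxylic acid cycle and its shuttles, 6 of 24 genes were higher by 2-fold or more in dKO and none lower, with a median of 0.70. Among the 6, Ogdh went from 74.6 to 184 FPKM (1.24) and Idh3b from 104 to 257 (1.26). Myoglobin, Mb (chr15:76845917-76887538), the oxygen store of muscle, had 2791 FPKM in P2.5 dKO and 175 in E15.5 dKO, and 2888 and 355 in dHET. The 2 P2.5 libraries were close to each other and the E15.5 dKO library was the lowest of the 4. The change was 3.94 in dKO, or 15.3-fold, and 3.06 in dHET. Mitochondrial creatine kinase, Ckmt2, had a dKO change of 2.98 and a dHET change of 3.48. The regulators of mitochondrial biogenesis did not share this size of change. Of 22 counted, with a dKO median of 0.20, 1 was at least 2-fold higher, the mitochondrial fusion gene Mfn2 (1.17), and none lower. These shares are near the 5.45% higher and 2.35% lower of all counted genes. Ppargc1a, a coactivator of mitochondrial genes, had 10.5 FPKM at P2.5 dKO and 15.2 at E15.5 dKO (-0.54), and Esrra, a nuclear receptor of the same circuit, 43.8 and 22.9 (0.86).

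Glycolysis and glucose uptake moved in both directions, with 4 of 25 genes higher by 2-fold or more and 3 lower in dKO. Slc2a1 (chr4:118781350-118809934), the glucose transporter of fetal heart, had 13.0 FPKM in P2.5 dKO and 68.1 in E15.5 dKO, and 9.30 and 57.5 in dHET. Its change was -2.35 in dKO, 5.08-fold lower at P2.5, and -2.46 in dHET. Slc2a4, the insulin-regulated transporter of adult heart, had 33.9 and 18.2 FPKM in dKO (0.82), so the ratio of Slc2a4 to Slc2a1 went from 0.267 to 2.60 in dKO and from 0.302 to 4.18 in dHET. The muscle enolase Eno3 (1.97) and the glycerol phosphate enzyme Gpd1 (2.26) were higher. The lactate exporter Slc16a3 had 23.5 FPKM in P2.5 dKO and 53.6 in E15.5 dKO (-1.20), against 7.27 and 44.1 in dHET (-2.40).

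Adult sarcomere genes and their fetal or atrial counterparts were each called in 1 direction only, and in each group many members lay within 2-fold. Of 21 counted adult or ventricular genes, 10 were higher by 2-fold or more in dKO, none was lower and all had a change above 0, with a median of 0.91 beside 0.87 in dHET. Among the 15 with transcripts of at least 1000 bases and no copies, the dKO median was 0.90 and 5 were higher. The transcripts of Tnni3, Myl2 and Myl3 are under 1000 bases. Myom2 (chr8:15057653-15133419), a component of the adult M-band, had 100.1 FPKM at P2.5 dKO and 6.24 at E15.5 dKO, and 132 and 9.34 in dHET. The changes were 3.76 and 3.72. Cardiac troponin I, Tnni3, had 1577 and 385 FPKM in dKO and 1263 and 484 in dHET, with changes of 1.98 and 1.43. Its fetal counterpart Tnni1 had 811 and 702 FPKM in dKO, a change of 0.16. Thus Tnni3 was at 0.549 times Tnni1 in E15.5 dKO and at 1.94 times in P2.5 dKO, beside 0.661 and 1.57 in dHET.

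The ventricular light chains Myl2 (1.38) and Myl3 (1.57) were higher in dKO. Of 15 counted fetal, atrial or smooth muscle genes, 6 were at least 2-fold lower in dKO and none higher, and 7 were lower in dHET. The other 9 lay within 2-fold in dKO, and 6 of the 15 had a dKO change above 0, among them Actc1 (0.85) and Acta2 (0.43). The medians were -0.33 and -0.85, and 12 of the 15 had a less negative or more positive change in dKO than in dHET. Myl4 (chr11:104411977-104448533), the atrial essential light chain that ventricles express before birth, had 66.0 FPKM in P2.5 dKO and 692 in E15.5 dKO, and 29.0 and 679.9 in dHET. It was 10.7-fold lower at P2.5 in dKO (-3.42) and 22-fold lower in dHET (-4.46). The atrial regulatory chain Myl7 had 161 and 333 FPKM in dKO (-1.09) and 41.7 and 234 in dHET (-2.42). Nppa, the atrial natriuretic peptide that ventricles also make before birth, had 1021 and 1297 FPKM in dKO (-0.39) and 182 and 775 in dHET (-2.04). For all 3 genes the P2.5 dKO value lay above the P2.5 dHET value. Among the 10 counted genes of this group with transcripts of at least 1000 bases and no copies, the dKO median was 0.07. The switch of myosin heavy chains could not be read, because Myh6 was listed at 0 in P2.5 dKO and Myh7 at 0 in E15.5 dKO, both with the deposited status HIDATA.

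**Figure D2:**
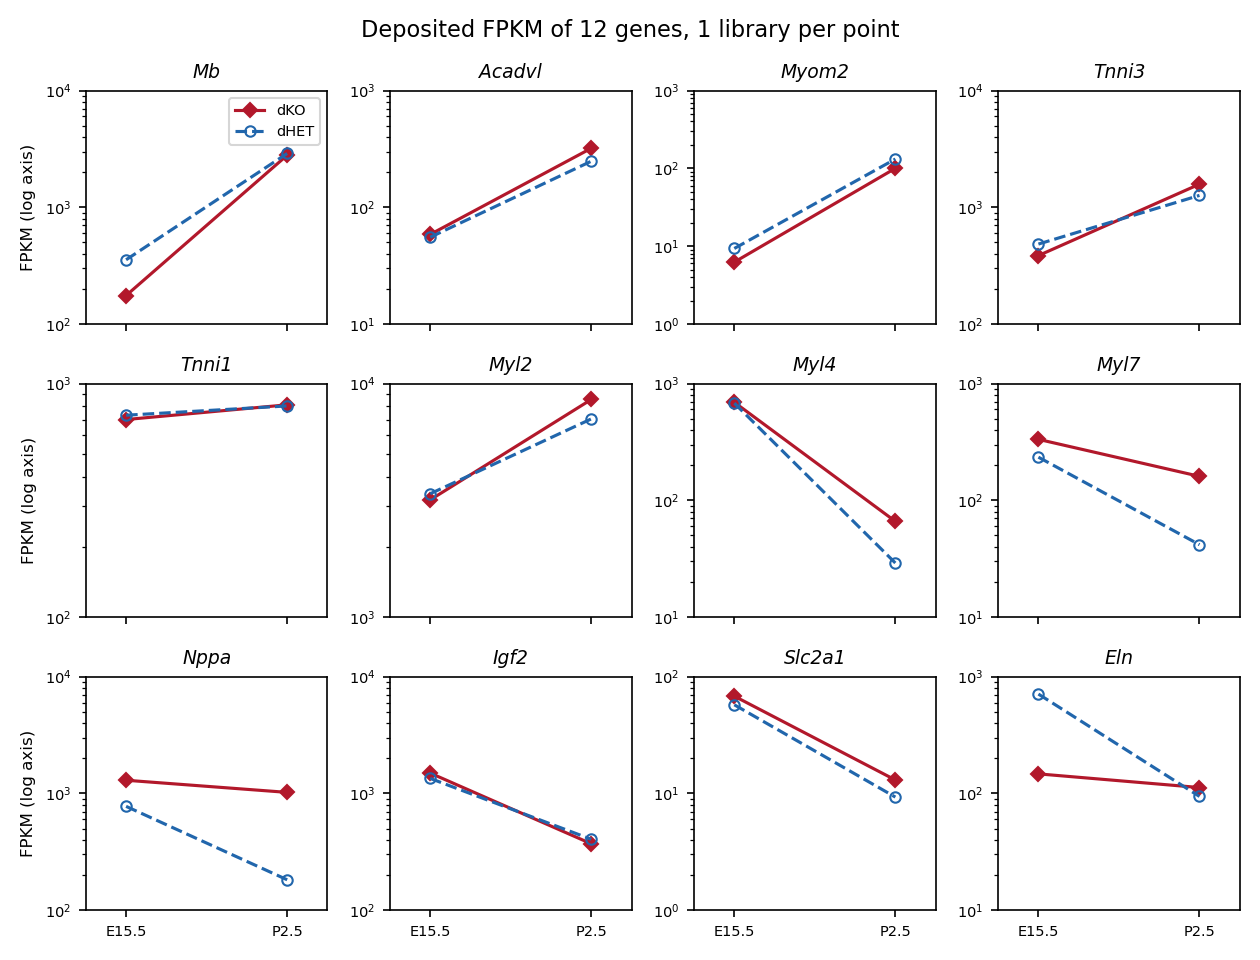
Deposited FPKM of 12 genes in each library, on log axes, with the stage on the x axis. Diamonds joined by solid lines are dKO and open circles joined by dashed lines are dHET, 1 library per point; Nppa and Eln run nearly flat in dKO (1297 to 1021 and 147 to 112 FPKM), whereas Mb and Slc2a1 run in the same direction in both genotypes.

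Of 30 counted genes of calcium cycling and excitation, 6 were higher by 2-fold or more in dKO, 3 were lower and 21 lay within 2-fold (median 0.59). In dHET 10 were higher and 3 lower (0.69). Kcnip2 (chr19:45868160-45890293), the accessory subunit of the transient outward potassium current, had 41.6 FPKM at P2.5 dKO and 3.26 at E15.5 dKO, a change of 3.28 beside 3.66 in dHET. The calcium pump of the sarcoplasmic reticulum, Atp2a2, had 1284 and 413 FPKM in dKO (1.59), and the release channel Ryr2 87.8 and 35.5 (1.24). Phospholamban, Pln, which restrains that pump, had 731 and 444 FPKM in dKO (0.67) and 1266 and 490.2 in dHET (1.41). The 3 lower genes in dKO were the fetal T-type calcium channel gene Cacna1h (-1.46), the atrial pump inhibitor Sln (-1.37) and Casq1 (-1.03), the calsequestrin of skeletal muscle. Of T-tubule and intercalated disc genes, 17 of 18 lay within 2-fold in dKO, a share near the 92.2% of all counted genes. The exception was Gja5, the atrial and conduction system connexin, with 15.0 and 45.5 FPKM (-1.58).

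Most fetal growth genes were at least 2-fold lower at P2.5 in each genotype. Of 25 counted imprinted and fetal growth genes, 18 were at least 2-fold lower in dKO and 1 was higher, with a median of -1.11. In dHET 17 were lower and 1 higher, with a median of -1.24. Igf2 (chr7:149836673-149856261), the fetal insulin-like growth factor, had 370.5 FPKM in P2.5 dKO and 1494 in E15.5 dKO, and 405 and 1345 in dHET. The changes were -2.05 and -1.69. Its neighbour H19, a noncoding RNA, had 389 and 1469 FPKM in dKO (-1.96). Gpc3 (-2.45), Peg3 (-1.86), Mest (-1.80), Cdkn1c (-1.80), Igf2r (-1.45) and Plagl1 (-1.38) belonged to the same set of imprinted or growth-restraining genes. Igfbp7, a secreted binding protein, was the member that was higher, at 109 and 32.0 FPKM (1.69).

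Of 43 counted cell cycle genes, 6 were at least 2-fold lower at P2.5 in dKO, none was higher and 37 lay within 2-fold, whereas 20 were lower in dHET. In dKO 39 had a change below 0. The difference between the genotypes was not tested, since each value comes from single libraries. The medians were -0.60 and -0.97, and 36 of the 43 genes had a higher change in dKO than in dHET, by 0.27 in the median. The median of the 26 mitosis genes was -0.69 in dKO and -1.18 in dHET, and that of the 17 genes of DNA replication and S phase was -0.28 and -0.43. Ccnb1, the mitotic cyclin, had 4.12 and 14.1 FPKM in dKO (-1.60) and 4.70 and 15.8 in dHET (-1.51), so it was lower by about the same amount in both. Near-identical copies elsewhere in the genome cover 83.1% of the Ccnb1 transcript, so its reads may be split. Cenpe, a kinetochore motor, had 5.85 and 9.24 FPKM in dKO (-0.62) and 3.39 and 11.2 in dHET (-1.43). Top2a, which untangles chromosomes, had 32.5 and 63.4 FPKM in dKO (-0.99) and 26.7 and 70.8 in dHET (-1.33). In bulk tissue, fewer dividing cells and less of these RNAs per cell cannot be told apart.

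**Figure D3:**
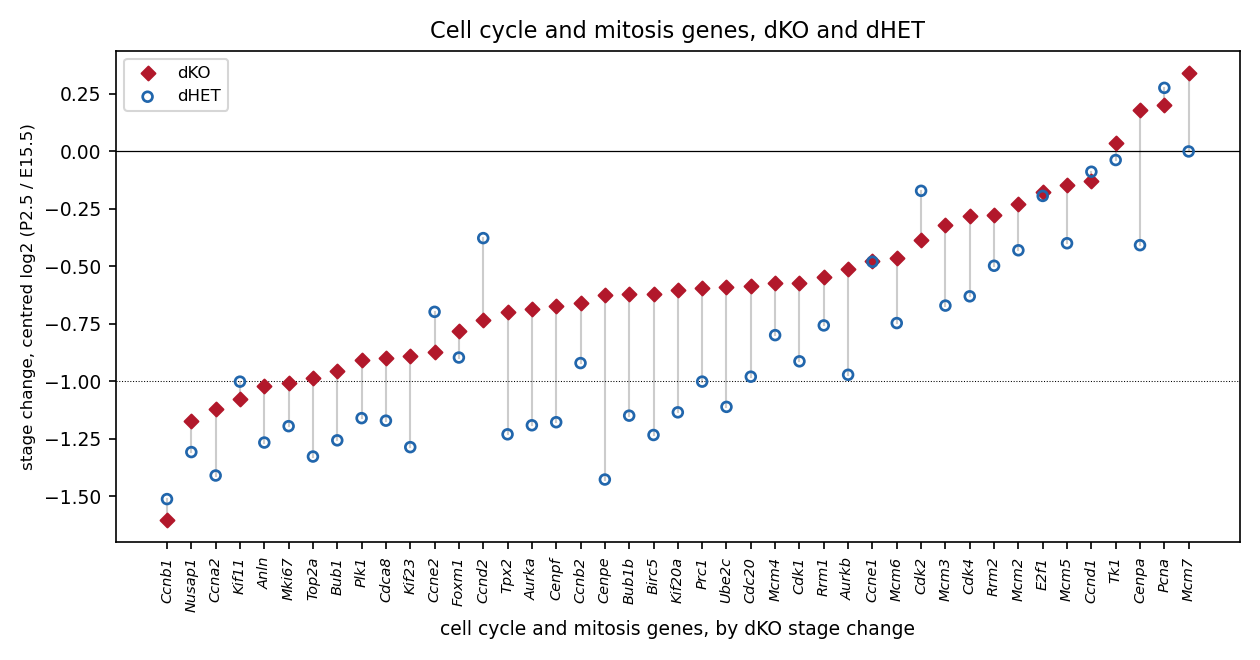
Stage change of the 43 counted cell cycle and mitosis genes, ordered by their dKO value. The y axis is the centred log2 change from E15.5 to P2.5; diamonds are dKO and open circles dHET, joined by a grey line for each gene, and for 36 genes the diamond lies above the circle.

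Promoters of 2 members, Top2a and Mki67, are shown because cell cycle genes are known for a pair of promoter words. The sequences are from RefSeq on build GRCm38.p6, from 250 bases before to 50 bases after the annotated start, on the minus strand of chr11:99024140-99024439 (Top2a) and chr7:135716330-135716629 (Mki67). Mki67 encodes the proliferation antigen Ki-67 and had a dKO change of -1.01. Capitals mark CCAAT, the box bound by NF-Y, and TTTGAA, a cell cycle homology region word, each on either strand.
Top2a: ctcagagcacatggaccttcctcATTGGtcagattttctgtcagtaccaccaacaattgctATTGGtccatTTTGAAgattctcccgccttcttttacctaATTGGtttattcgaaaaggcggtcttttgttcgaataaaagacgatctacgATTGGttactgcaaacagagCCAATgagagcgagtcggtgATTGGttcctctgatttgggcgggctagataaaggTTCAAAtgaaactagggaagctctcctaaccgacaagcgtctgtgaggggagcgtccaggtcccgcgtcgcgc
Mki67: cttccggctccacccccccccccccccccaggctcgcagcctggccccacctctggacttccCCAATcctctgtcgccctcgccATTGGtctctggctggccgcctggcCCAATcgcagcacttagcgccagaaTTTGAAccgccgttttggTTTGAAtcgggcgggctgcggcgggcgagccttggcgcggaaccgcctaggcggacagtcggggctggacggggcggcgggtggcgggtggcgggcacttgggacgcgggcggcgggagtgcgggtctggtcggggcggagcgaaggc
Top2a holds 6 matches to CCAAT and 2 to TTTGAA, and Mki67 holds 3 and 2, and no match overlaps another in either sequence. Both words occur together in a promoter of 16 of the 34 counted cell cycle genes with an entry (47.1%). The share was 5.77% of 5910 counted genes with an entry, 12.1% of the 124 such genes that were at least 2-fold lower in dKO, and 6.95% of all 32851 promoters of this length. A match is a description of letters and not a binding site.

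Of 18 counted immediate early genes, 11 were at least 2-fold higher at P2.5 in dKO and 10 in dHET. Fos had 15.4 FPKM in P2.5 dKO and 0.758 in E15.5 dKO (3.18), and Nr4a1 74.8 and 8.32 (2.98). In dHET their changes were 3.56 and 3.26, and 15 of the 18 genes had a lower change in dKO than in dHET. Among hypoxia-response genes 4 of 19 were at least 2-fold lower in dKO and none higher, among them Slc2a1, Bnip3 (-1.22) and Ndrg1 (-1.09). Of 25 antioxidant genes 7 were higher and 1 lower. Superoxide dismutase 1, Sod1, had 148 and 33.3 FPKM in dKO (2.07), and the secreted glutathione peroxidase Gpx3 97.2 and 279 (-1.56).

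Of 20 counted cardiac transcription factors, 19 lay within 2-fold in dKO, a share near the 92.2% of all counted genes, with a median of 0.01. Tbx5, a factor of atrial and septal development, had 6.19 and 13.1 FPKM (-1.02), and Hand2 58.8 and 28.3 (0.98). Of 44 counted matrix genes, 3 were higher and 2 lower in dKO (median 0.06), beside 5.45% and 2.35% of all counted genes. In dHET 5 were higher and 6 lower, beside 5.18% and 2.59%. The 2 lower genes in dKO were Vcan (-1.95), the proteoglycan of the fetal matrix, and Fbln5 (-1.26). The basement membrane collagen Col15a1 was higher (1.40).

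The cell type markers describe what these whole hearts held. Of 13 counted cardiomyocyte markers 7 were higher by 2-fold or more in dKO and none lower (median 1.07). Their summed level was 14988 FPKM in E15.5 dKO and 33440 in P2.5 dKO, and 15139 and 25363 in dHET. Such sums are not centred and rest largely on a few genes, with Myl2 alone at 3177 FPKM in E15.5 dKO and 8550 in P2.5 dKO. All usable rows summed to 229789 FPKM in E15.5 dKO and 295322 in P2.5 dKO. Endothelial markers had 5 of 23 higher and 2 lower (median 0.24), and fibroblast markers 2 of 13 higher and none lower (0.03). Over all counted genes 5.45% were higher and 2.35% lower. No neutrophil, thymus or lung marker reached the minimum. The neutrophil markers summed to 1.20 FPKM in E15.5 dKO and 15.8 in P2.5 dKO. Brown fat markers counted were Cidea and Fabp4, and endothelium also expresses Fabp4. Cidea had 19.1 FPKM in P2.5 dKO and 2.29 in E15.5 dKO (2.57). The defining gene Ucp1 was listed at 0 in both dKO libraries. Globin genes share loci, and their rows moved apart: Hba-a2 was listed at 0 at P2.5 and at 73.5 FPKM at E15.5 in dKO, and the joint row of Hba-a1 and Hba-a2 at 292 and 297. The erythroid markers summed to 447 FPKM at P2.5 dKO and 498 at E15.5 dKO. The part of these differences in makeup in any change above was not tested.

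Set beside the controls, most stage changes of the dKO hearts were also present in dHET hearts, which are separate libraries. In dHET 421 genes (5.18%) were at least 2-fold higher and 210 (2.59%) lower. Of the higher genes 323 were called in both genotypes, 72.9% of the dKO and 76.7% of the dHET calls. Of the lower genes 131 were called in both, 68.6% of the dKO and 62.4% of the dHET calls. Of the 421 higher in dHET, 420 had a dKO change above 0, and all 210 lower in dHET had one below 0. The 421 genes had a median of 1.34 in dKO and 1.36 in dHET, and the 210 genes one of -1.10 in dKO and -1.28 in dHET. Across the 8121 genes the correlation of the dKO and dHET changes was r = 0.897 (rho = 0.877). The points share their read type, their gene models and the authors' scaling of each stage, so this describes the tables and is no evidence from replicates.

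**Figure D4:**
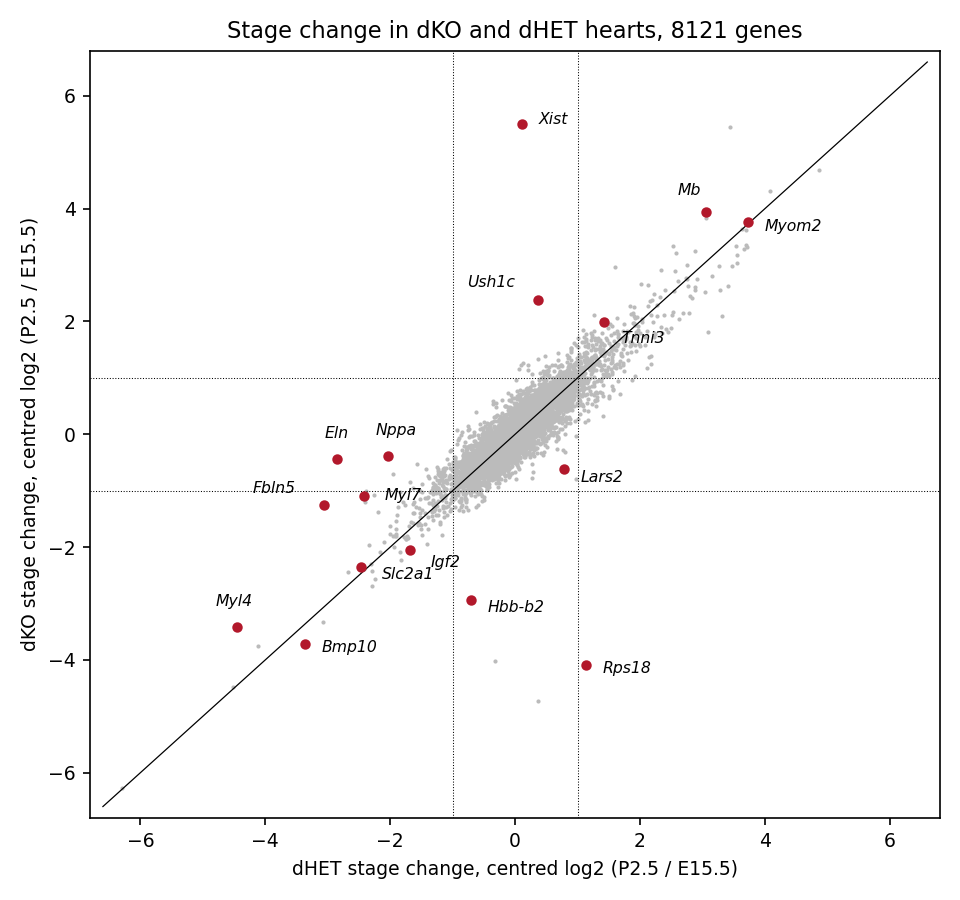
Stage change in dKO hearts (y axis) against dHET hearts (x axis), as centred log2 of P2.5 over E15.5, for 8121 genes. Dotted lines mark 2-fold and the diagonal marks equal change; Eln, Nppa, Fbln5 and Myl7 lie above the diagonal on the left, and Rps18 lies below it on the right.

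The dKO change exceeded the dHET change by at least 2-fold for 20 genes (0.246%) and fell short of it by as much for 13 (0.16%), and 97.1% of genes differed by less than 1.5-fold. The widest positive difference outside the sex and globin genes was that of Eln (chr5:135178466-135223124), the protein of elastic fibres, with 112 FPKM in P2.5 dKO and 147 in E15.5 dKO, and 94.2 and 709.7 in dHET. The P2.5 libraries were alike, and the E15.5 dHET library stood above the other 3. The changes were -0.43 in dKO and -2.86 in dHET. Fbln5, which assembles elastic fibres, had 4.22 and 11.1 FPKM in dKO (-1.26) and 5.15 and 52.1 in dHET (-3.07). Lox, the enzyme that cross-links elastin, had changes of -0.84 and -1.68, and Sfrp2, a secreted Wnt modulator, -1.0 and -2.39. Cnn1, the smooth muscle calponin, had 53.5 and 109.8 FPKM in dKO (-1.07) and 15.9 and 82.7 in dHET (-2.26).

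Ush1c (chr7:53450721-53493860), a scaffold protein known from sensory cells and gut, was higher at P2.5 in dKO and not by 2-fold in dHET. It had 11.3 FPKM in P2.5 dKO, 1.3 in E15.5 dKO, 1.55 in P2.5 dHET and 1.05 in E15.5 dHET, so 1 library of the 4 was high. In the other direction Pcsk6, a proprotein convertase, had 6.07 and 4.48 FPKM in dKO (0.32) and 10.6 and 3.52 in dHET (1.40). Lars2, the mitochondrial leucine transfer RNA ligase, had 94.5 and 141 FPKM in dKO (-0.62) and 204 and 121 in dHET (0.79). Of the dHET calls, 15 higher and 8 lower genes lay within 1.5-fold in dKO. Named after their values were seen, the 8 included Nppa, Eln, the anaphase regulator Pttg1 (-0.29 in dKO and -1.04 in dHET) and the spindle gene Dlgap5 (-0.58 and -1.24), and the 15 included Pcsk6 and the matrix proteoglycan Dcn (0.50 and 1.08). Of the dKO calls, 23 higher and 9 lower genes lay within 1.5-fold in dHET, among them Xist, Eif2s3y and Ddx3y, which follow the sex pattern.

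Of 39 counted genes described elsewhere as miR-1 targets, 3 were higher by 2-fold or more in dKO and 1 was lower, shares near those of all counted genes, with a median of -0.04 in dKO and -0.09 in dHET. The lower one was Igf1r, the receptor of insulin-like growth factors, with 8.48 and 18.3 FPKM in dKO (-1.07) and 9.0 and 19.1 in dHET (-0.96). The higher ones were Fabp3, Kcne1 (1.84 in dKO and 1.62 in dHET) and Klf4 (1.18 and 1.62), which also belong to other groups above. Genes with the 7-base word ACATTCC, complementary to the miR-1 seed, in their longest annotated 3' UTR numbered 865. Their median was -0.15 in dKO and -0.15 in dHET, against 0.01 and 0.01 for the 7100 genes without it. The dKO change differed from the dHET change by -0.03 in their median. Their 3' UTRs were longer, with medians of 2363 and 1063 bases. Carriers of GGACCAA, the word for miR-133, had the same median of -0.15 in dKO over 680 genes.

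Transcript length moved with the stage change in both genotypes. In dKO the median was 0.99 for 35 genes with transcripts under 500 bases, 0.56 for 446 genes of 500 to under 1000 bases, and -0.22 for 2588 genes of 4000 bases or more. In dHET these medians were 1.10, 0.48 and -0.16. Across 8005 genes the correlation of the dKO change with log2 length was r = -0.387, and with GC content r = 0.325. In dHET these were r = -0.321 and r = 0.204. The dKO minus dHET difference also moved with GC content (r = 0.276). Adjusted for GC and length, that difference was at least 2-fold higher for 15 genes and lower for 14, against 20 and 13 unadjusted. The part of GC content in the difference of any single gene was not tested. Of 372 genes whose transcript has near-identical copies over at least 50% of its length, 15.9% were higher by 2-fold or more and 5.38% lower in dKO. Over 7245 transcripts of at least 1000 bases without such copies, 284 were higher and 154 lower. Short transcripts with copies, such as those of Cox5b (3.35) and Rpl38 (3.62), thus make up part of the largest changes. The part of read type and length in them was not tested.

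**Figure D5:**
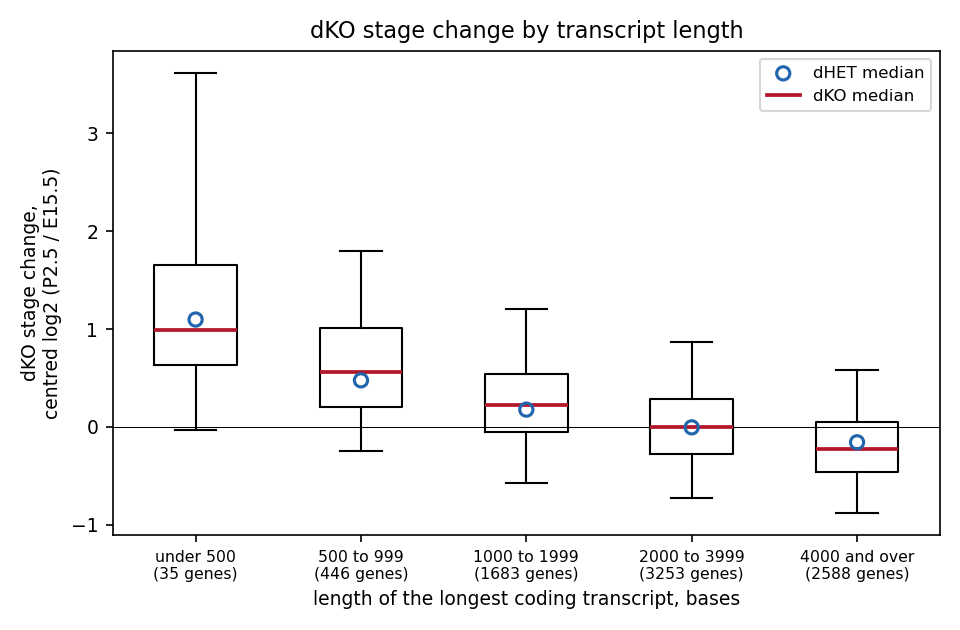
dKO stage change by the length of the longest coding transcript. Boxes span the quartiles, whiskers the 5th to the 95th percentile and red lines the dKO medians, with open circles for the dHET medians; the dKO median runs from 0.99 under 500 bases to -0.22 at 4000 bases and over.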

How the data were processed

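The authors' deposited values were FPKM, in 1 table per stage with 22552 gene rows. Per the submitters' processing notes, TopHat, Bowtie, Cufflinks and mm9 were used; their scaling and multiple-match settings were not stated. The control column of the E15.5 table is headed WT and its label says dHET, and it was taken as the dHET library. In each table, 86 rows displaced by commas in joint gene names were realigned. Rows were joined on gene name and locus (22516), and those with status OK or NOTEST in both tables kept (22319). An exact 0 can be a failed estimate.

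Changes used a pseudocount of 1 FPKM and were centred per genotype (0.05 for dKO, -0.04 for dHET). Of the counted genes, 17 were under 1 FPKM in 1 dKO library. Transcript length, GC content and 3' UTR words came from GENCODE release M1 on NCBIM37, the assembly of mm9, for 98.6% of counted genes, and copies at 95% identity from minimap2 2.31. Tables were made with Python 3.11.15, numpy 2.4.6 and pandas 2.3.3, and checked on simulated data with known changes. Named genes are the 12 with the largest dKO change in each direction, the 10 with the largest dKO minus dHET difference in each direction, up to 4 per gene list and a fixed set of isoform genes; others named are list members. A gene that the rule names is not reported here. The members, lists and rules were chosen with earlier results of these data known.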

Additional observations from a re-analysis of the deposited data

Results flagged for a closer look

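Rps18, a ribosomal protein gene, was the only counted gene outside the sex list that differed by at least 2-fold in opposite directions in the 2 genotypes. Its value was 0.115 FPKM in P2.5 dKO, 17.3 in E15.5 dKO, 39.3 in P2.5 dHET and 17.9 in E15.5 dHET, a change of -4.09 in dKO and 1.14 in dHET. The transcript is 600 bases long and 91.0% of it has near-identical copies elsewhere in the genome. With 1 library per group the difference was not tested.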

How the results depend on the processing

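No paired analysis was possible because each group holds 1 library. Against 443 higher and 191 lower dKO genes, rescaling to equal sums gave 273 and 665, a fold of 1.5 gave 1114 and 846, a fold of 4 gave 68 and 21, and transcripts of at least 1000 bases without copies (chosen after seeing the data) gave 284 higher. The lower count was 74 with a pseudocount of 5, 330 with a mean of at least 1 FPKM, 105 with at least 10, 116 with 5 in both dKO libraries and 346 with no filter. Against 20 higher and 13 lower dKO minus dHET differences, a pseudocount of 5 gave 11 and 7, a mean of at least 1 FPKM 39 and 27, 5 in both 12 and 6, no filter 42 and 41, and long transcripts without copies 12 and 6. The lower count was 23 with equal sums, 20 with a pseudocount of 0.1 and 7 at a mean of at least 10. The epicardial median of 0.31 became -0.31 at a mean of at least 1 FPKM and -0.32 with no filter. The erythroid median of 0.00 became -1.33 at a mean of at least 1 FPKM and -1.66 adjusted for GC and length. The causes were not tested. Of 110 named genes past 2-fold in dKO, none changed sign in any alternative and 28 fell below 2-fold in at least 1, among them Cox6a1 (0.42) and Kif11 (-0.72) adjusted for GC and length. The correlation of dKO and dHET changes lay between 0.873 and 0.903.

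Single libraries, the change of read type between stages and the change of sex pattern in dKO limit every stage value. At 5 FPKM a transcript of 1000 bases rests on 249.6 fragments in P2.5 dKO and 519.7 in E15.5 dKO, and a shorter one on fewer. The weight of depth beside the other limits was not tested. Levels under 1 FPKM rest on few fragments.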

Other observations

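Genes of interferon response and antigen presentation had 4 of 9 counted members at least 2-fold higher at P2.5 in dKO and none lower. H2-D1, a class I histocompatibility gene, had 54.0 FPKM in P2.5 dKO, 14.6 in E15.5 dKO, 28.9 in P2.5 dHET and 13.0 in E15.5 dHET, with changes of 1.77 and 1.14. Ifitm3, which blocks virus entry, had 29.0 and 8.73 FPKM in dKO (1.58) and 38.0 and 8.51 in dHET (2.08). In dHET 4 members were also higher and none lower. Of the 9 counted members, 7 had a lower change in dKO than in dHET, and H2-D1 was not among these. Of 26 members on the list, 17 were below the minimum.

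Of 29 counted chaperones and genes of the unfolded protein response, 28 lay within 2-fold in dKO, near the 92.2% of all counted genes, and 1 was higher. The higher one was the mitochondrial co-chaperone Hspe1, with 32.3 and 12.5 FPKM (1.26), 69% of whose transcript has copies elsewhere. Of 16 counted cell cycle inhibitors and p53 response genes, 14 lay within 2-fold in dKO, near the 92.2% of all counted genes. Btg2 was higher (1.03) and Cdkn1c lower (-1.80). In the nerve and Schwann cell list 3 of 19 members were counted, and Gap43, a protein of growing axons, had 3.06 FPKM in P2.5 dKO and 8.66 in E15.5 dKO (-1.29) beside 2.07 and 8.50 in dHET (-1.59).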
